A study of Mus musculus with 4 samples.

Results

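The RISC-bound small RNAs (R-sRNAs) of the mouse brain included 7 miRNAs known from microglia, myeloid cells and lymphocytes: mmu-miR-150-5p, mmu-miR-142a-3p, mmu-miR-142a-5p, mmu-miR-146a-5p, mmu-miR-146b-5p, mmu-miR-223-3p and mmu-miR-155-5p. They were chosen by name, and their values were obtained by summing every sequence that the authors had assigned to that name. The 7 miRNAs are 7 of 1029 miRNA names in the table, and they comprise 383 of 85704 sequences. The study pulled down the Ago proteins, the core of the RNA-induced silencing complex (RISC), with a GW182 peptide, and sequenced the short RNAs that came with them (Ago-RP-Seq). The tissue was cortex and hippocampus combined, from BL6 mice (the C57BL/6J strain per the study's methods), at 2 months (n = 2 libraries) and at 18 months (n = 2 libraries). The labels name no transgene, deletion or treatment, and age was the factor compared.

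Ago proteins use an miRNA as a guide to find mRNAs that pair with its seed, the bases from position 2 to 8, and then silence them. miR-142 comes from a hairpin known to be active in nearly all blood-derived cells, microglia among them, and both of its arms enter the RISC. miR-150 is known from mature lymphocytes, where it represses Myb, and miR-223 from neutrophils and other myeloid cells. miR-146a and miR-146b are induced by NF-κB and dampen it by repressing Traf6 and Irak1, and miR-155 is induced when macrophages and lymphocytes are activated. In bulk tissue, fewer cells of a type and less of its miRNA per cell cannot be told apart. Which cells the reads of each member came from was not determined.

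RefSeq holds the mature sequence of 6 of the 7 members, and they are shown here because the seed decides which mRNAs each can find. Capitals mark positions 2 to 8, the seed.
miR-142a-3p: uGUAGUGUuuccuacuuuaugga
miR-142a-5p: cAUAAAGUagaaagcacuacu
miR-146a-5p: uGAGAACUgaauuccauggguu
miR-146b-5p: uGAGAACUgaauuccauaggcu
miR-155-5p: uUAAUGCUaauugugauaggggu
miR-223-3p: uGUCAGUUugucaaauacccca
miR-146a-5p and miR-146b-5p share their seed and differ at 2 positions near the 3′ end, G18A and U21C, counted from 1 at the 5′ end with the base of miR-146a-5p first. No sequence under either name was found in both hairpins, so the reads of these 2 miRNAs could be told apart. The other members each have a seed of their own. The 6mer seed of miR-150-5p in the table was CUCCCA.

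The members lie at separate loci of the mouse genome (RefSeq, GRCm38.p6, used here only to place them). Both miR-142a arms are in Mir142 on the plus strand of chromosome 11, miR-142a-5p at chr11:87756867-87756887 and miR-142a-3p at chr11:87756903-87756925. That locus lies within the lincRNA gene Mir142hg and opposite Mir142b. miR-146a-5p is at chr11:43374435-43374456 on the minus strand, in Mir146. miR-146b-5p is at chr19:46342790-46342811, inside the gene Mfsd13a but in none of its exons. miR-155-5p is at chr16:84714143-84714165, in an exon of the lincRNA gene Mir155hg, and miR-223-3p is at chrX:96242884-96242905, in an exon of F630028O10Rik. For Mir150 the RefSeq table placed miR-150-3p, at chr7:45121798-45121819.

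The 4 libraries held 10484940 and 11388999 reads at 2 months and 10575081 and 9067007 at 18 months, so that 3 reads were worth 0.263 to 0.331 CPM, the deposited counts after scaling each library to a common total. Of the 1029 miRNA names, 456 had a mean of at least 10 CPM and were tested. Neuronal miRNAs marked the tissue as brain, at 178482 to 208820 CPM for the 4 names listed. Of tissues not in the sample, the liver miRNA miR-122-5p was at 5.01 to 7.11 CPM. The muscle miRNAs miR-1a-3p and miR-133a-3p, also of a tissue not in the sample, summed to 150.3 to 229.8 CPM. The miRNAs of red blood cells, miR-451a, miR-144-3p, miR-144-5p and the joined name miR-486a-5p|miR-486b-5p, summed to 2002 and 3574 CPM at 2 months, against 1851 and 2960 CPM at 18 months. Red blood cell miRNAs were thus present in all 4 libraries and varied between replicates of 1 age, and their part in the levels of the members was not tested. Labels do not say whether the replicates came from separate mice, so p-values measure the spread between these libraries.

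The members together were a small share of the brain RISC, and miR-150-5p was most of it. They summed to 3493 and 3931 CPM at 2 months, against 3233 and 3236 CPM at 18 months, which is 0.323% to 0.393% of all reads. miR-150-5p gave 72.1% to 76.0% of that sum. Without it the other 6 came to 839 and 1098 CPM at 2 months, against 889 and 866 CPM at 18 months.

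miR-150-5p was at 2654 and 2832 CPM at 2 months, against 2344 and 2370 CPM at 18 months. It ranked 67th by mean level among all miRNA names, and both 18-month libraries lay below both 2-month libraries. miR-142a-3p was at 258.9 and 462.2 CPM at 2 months, against 239.2 and 290.8 CPM at 18 months. The high value belonged to 2-month replicate 2, and the other 2-month library lay between the 18-month libraries. miR-146a-5p was at 179.3 and 221.0 CPM at 2 months, against 279.7 and 210.2 CPM at 18 months, so the ages overlapped. miR-142a-5p was at 176.4 and 208.4 CPM at 2 months, against 128.9 and 173.4 CPM at 18 months, with both older libraries below the younger ones. For miR-146b-5p the values were 171.5 and 140.5 CPM at 2 months, against 182.3 and 123.9 CPM at 18 months. The 18-month libraries enclosed the 2-month libraries, so no direction was visible.

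miR-223-3p, the miRNA of neutrophils and other myeloid cells, was at 49.7 and 63.0 CPM at 2 months, against 54.8 and 63.0 CPM at 18 months, again with overlap. miR-155-5p was the rarest member. It was at 3.34 and 3.25 CPM at 2 months, from 35 and 37 reads, and at 3.88 and 4.96 CPM at 18 months, from 41 and 45 reads. Both older libraries were above the younger ones, but the 95% Wilson intervals of the lower 18-month library (2.86 to 5.26 CPM) and the higher 2-month library (2.40 to 4.64 CPM) overlapped. Such intervals cover counting error only. Its rank was 539.

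**Figure D1:**
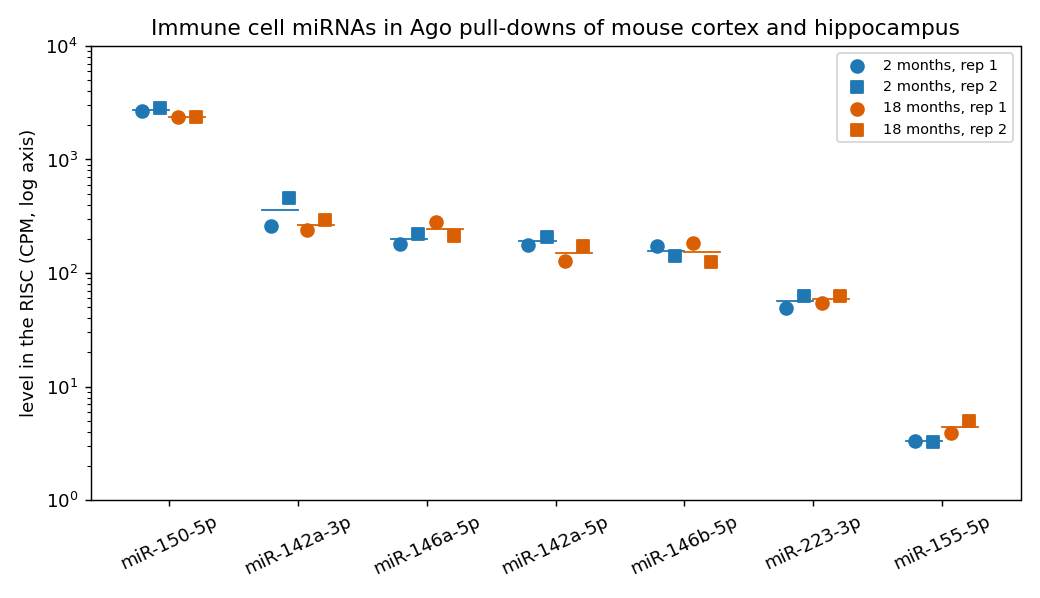
Level of each member in each library, in CPM on a log axis, with circles and squares for replicates 1 and 2 and short lines for the age means. miR-150-5p lies between 2344 and 2832 CPM and miR-155-5p between 3.25 and 4.96 CPM. The wide log axis draws the libraries of a member close together, though miR-142a-3p runs from 239.2 to 462.2 CPM.

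In the order of levels, miR-150-5p stood above miR-142a-3p in 4 of 4 libraries, by 3.07 ± 0.34 on the log2 scale (SD, n = 4). The next 4 members, miR-142a-3p, miR-146a-5p, miR-142a-5p and miR-146b-5p, had ranges over the libraries that overlapped from neighbour to neighbour. The gap between miR-142a-3p and miR-146a-5p, 0.46 ± 0.53 on the log2 scale (SD, n = 4), was smaller than its spread. miR-146b-5p stood above miR-223-3p by 1.41 ± 0.41 and miR-223-3p above miR-155-5p by 3.92 ± 0.26 on the same scale, each in 4 of 4 libraries.

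The comparison of the ages asked whether the RISC of older brain holds other amounts of these miRNAs. None of the 6 members tested passed limma's test on log2(CPM + 1), at an unadjusted p under 0.05 or after adjustment (0 of 6). By the same test 74 of 456 miRNAs had an unadjusted p under 0.05 (16.2%) and 1 of 456 passed the Benjamini-Hochberg adjustment (0.219%). On whole reads recovered from the CPM, edgeR (quasi-likelihood) and DESeq2 also called 0 of 6 members at an unadjusted p under 0.05. In 2 of the 6, miR-150-5p and miR-142a-5p, both 18-month libraries lay below both 2-month libraries, as they did for 41.4% of all tested miRNAs. In 0 of 6 members did both lie above, against 12.1% of all tested miRNAs. A share of 2 in 6 is close to the background, and it says nothing particular about the members.

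Over the 456 tested miRNAs the changes had a median of -0.22 on the log2 scale, and over the 6 tested members a median of -0.13. The change of miR-150-5p was also -0.22 (SE 0.20, limma adjusted p = 0.542), with a 95% interval from -0.70 to 0.26. Rescaling by the median of ratios, a scaling that sets the typical miRNA level, moved the median of all tested miRNAs to -0.01, and the change of miR-150-5p was then -0.01. The lower level of miR-150-5p at 18 months was thus no larger than the shift of the typical miRNA on the CPM scale.

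miR-142a-3p changed by -0.39 on the log2 scale (SE 0.32, limma adjusted p = 0.517), with an interval from -1.16 to 0.38. This value rested on 2-month replicate 2: without that library it was 0.03 (limma adjusted p = 0.973), and without 2-month replicate 1 it was -0.81 (past an unadjusted 0.05 by limma, adjusted p = 0.310). In the same library, 2-month replicate 2, the sum of the red blood cell miRNAs was at its highest. miR-451a was at 1810 CPM there and 878 CPM in 2-month replicate 1, and miR-144-3p at 1564 and 919 CPM. The other 2 names did not peak there: miR-486a-5p|miR-486b-5p was at 191.9 and 196.7 CPM and miR-144-5p at 7.99 and 7.44 CPM in these libraries, with the highest value of miR-144-5p, 8.71 CPM, in 18-month replicate 2. In 18-month replicate 1 and replicate 2 miR-451a was at 1344 and 1684 CPM, and their part in the level of miR-142a-3p was not tested. miR-142a-5p changed by -0.36 (SE 0.24, limma adjusted p = 0.457), with an interval from -0.94 to 0.23.

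miR-146a-5p had the most positive change of the 6 members, 0.28 on the log2 scale (SE 0.24, limma adjusted p = 0.520), with an interval from -0.31 to 0.87. After rescaling by the median of ratios it was 0.49 (limma adjusted p = 0.443). miR-146b-5p changed by -0.05 (SE 0.27, limma adjusted p = 0.938), and its sign turned with the scaling, to 0.16 by the median of ratios. miR-223-3p changed by 0.07 (SE 0.24, limma adjusted p = 0.907), with an interval from -0.52 to 0.65. miR-155-5p was below the level required for the test. Over all 1029 names without that requirement its change was 0.33 (limma adjusted p = 0.744). All 6 intervals included both 0 and the median of all tested miRNAs, and so did not settle the direction of any member.

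**Figure D2:**
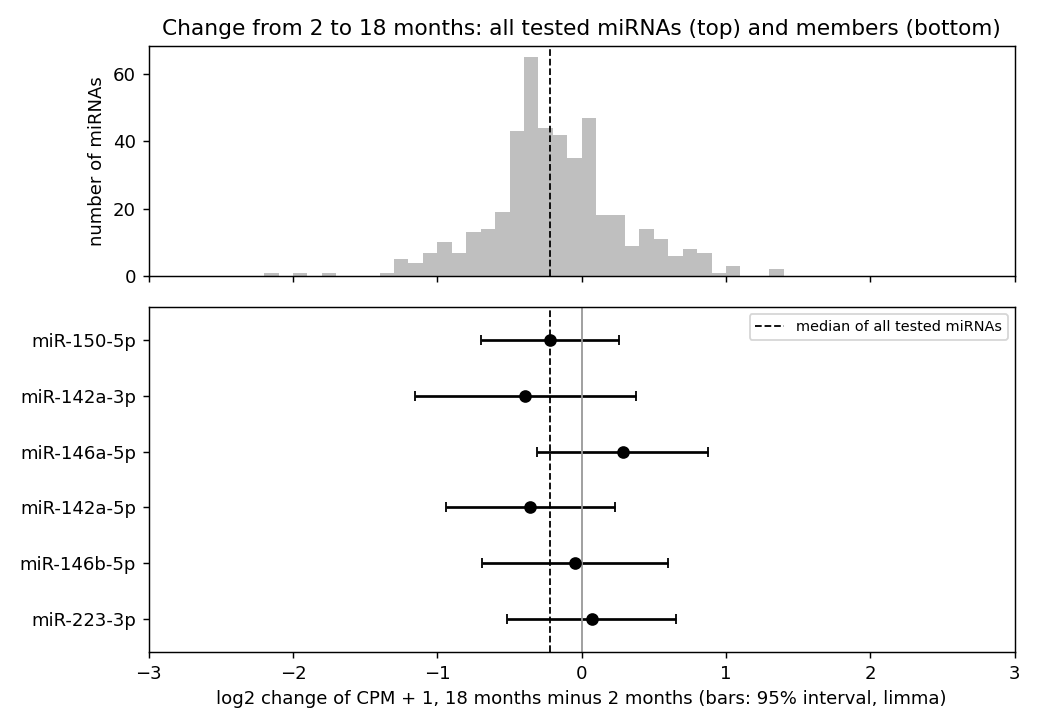
Top, histogram of the log2 change of CPM + 1 from 2 to 18 months for the 456 tested miRNAs. Bottom, the same change for the 6 tested members with 95% intervals from limma (n = 2 libraries per age), with a dashed line at the median of all tested miRNAs, -0.22, which lies inside all 6 intervals.

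Ratios within a library do not depend on the scaling. The ratio of miR-142a-5p to miR-142a-3p, the 2 arms of 1 hairpin, was 0.681 and 0.451 at 2 months and 0.539 and 0.596 at 18 months. The 3p arm was thus the more abundant one in all 4 libraries, and the ages overlapped (exact permutation test, two-sided p = 1, where 2 against 2 cannot go below 0.333). The ratio of miR-146a-5p to miR-146b-5p was 1.05 and 1.57 at 2 months and 1.53 and 1.70 at 18 months. The log2 difference between the ages, 0.33, was smaller than the SD of the 2-month libraries, 0.42 (exact permutation test, two-sided p = 0.667).

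The opposite arms of the other hairpins were rare. miR-150-3p was at 3.62 and 6.41 CPM at 2 months, against 3.97 and 2.43 CPM at 18 months, 442 to 977 times below miR-150-5p. miR-146b-3p was at 3.86 to 5.07 CPM, 24.4 to 45.9 times below miR-146b-5p. miR-146a-3p had 0 to 2 reads per library, which is under the 3 reads that a count of 0 allows. miR-155-3p and miR-223-5p were not listed in the table. None of these opposite arms reached the level for testing.

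The reads of miR-142a began at more than 1 position, which gives 1 hairpin arm several seeds. The sequences that carry this are shown as they stand in the table, with T for U and capitals for positions 2 to 8 of each read.
miR-142a-3p, reference start: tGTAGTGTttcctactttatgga
miR-142a-3p, 1 base later: gTAGTGTTtcctactttatgga
miR-142a-5p, reference start: cATAAAGTagaaagcactact
miR-142a-5p, 2 bases earlier: cCCATAAAgtagaaagcactac
The form of miR-142a-3p that starts 1 base after the RefSeq start had the 6mer seed UAGUGU and made up 52.6% (95% Wilson interval 50.7 to 54.5) and 44.0% (42.7 to 45.3) of its reads at 2 months. At 18 months it made up 43.4% (41.5 to 45.4) and 46.4% (44.5 to 48.3). Reads at the reference start, with the seed GUAGUG, made up 36.3% and 46.4% at 2 months and 48.6% and 42.7% at 18 months. Both seeds were thus present at similar amounts, and the later start led in 2-month replicate 1 and 18-month replicate 2 while the reference start led in the other two libraries. A start 3 bases late, with the seed GUGUUU, made up 6.40% on average.

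For miR-142a-5p the reference start, with the seed AUAAAG, made up 58.4% to 66.9% of reads. A start 2 bases earlier, with the seed CCAUAA, made up 31.4% (95% Wilson interval 29.3 to 33.6) and 36.3% (34.4 to 38.3) at 2 months and 35.4% (32.9 to 38.0) and 27.0% (24.9 to 29.3) at 18 months. Intervals of replicates of 1 age did not overlap at either age, so the libraries differed beyond counting error, and the ages overlapped. miR-223-3p had 10.9% to 15.1% of its reads at a start 1 base late, with the seed UCAGUU.

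The other members had nearly 1 start each. Reads at the most abundant start made up 97.4% to 98.2% for miR-146a-5p, 97.6% to 98.5% for miR-146b-5p and 97.6% to 98.7% for miR-150-5p. For miR-155-5p 30 of 35, 37 of 37, 41 of 41 and 42 of 45 reads shared the reference start. The share of reads with another than the most abundant start did not separate the ages for 6 members. For miR-146b-5p it was 2.45% and 2.12% at 2 months and 1.51% and 1.87% at 18 months, where the exact permutation test gave p = 0.333, the smallest it can give. Counting only sequences that averaged 1 CPM or more, this share was 0 in all 4 libraries, so it rested on rare reads.

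**Figure D3:**
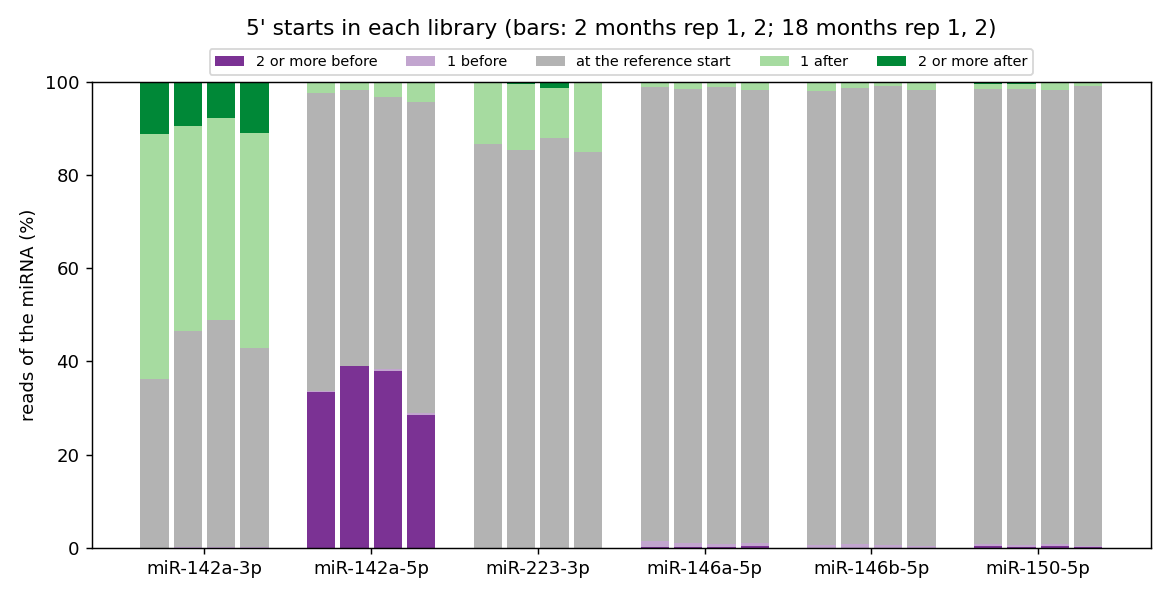
Share of each miRNA's reads by 5′ start relative to the RefSeq mature start (for miR-150-5p, relative to its own most abundant read), with 4 bars per miRNA for the 4 libraries. miR-142a-3p is split between the reference start (36.3% to 48.6%) and 1 base later (43.4% to 52.6%), while miR-146a-5p, miR-146b-5p and miR-150-5p have over 97% at 1 start.

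The share of a seed's reads that came from the member differed widely between seeds. miR-142a-3p supplied 99.3% of all reads in the table with the seed UAGUGU and 92.4% of those with GUAGUG. miR-150-5p supplied 92.2% of the reads with CUCCCA, followed by miR-532-3p with 6.53%. For AUAAAG miR-142a-5p supplied 78.0%, and miR-9-3p, a brain miRNA, supplied 20.0%. miR-223-3p supplied 87.3% of the reads with GUCAGU, followed by miR-344f-5p with 11.0%.

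The seed GAGAAC was supplied by miR-146a-5p (58.7%) and miR-146b-5p (40.9%) together. Its summed level was 343 and 355 CPM at 2 months, against 455 and 327 CPM at 18 months, so the ages overlapped for the pair as for each. miR-155-5p supplied 36.2% of the reads with UAAUGC, and sequences with no name supplied 62.6%. For this seed the named miRNA is thus a minority of what the RISC held.

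The study asked how toxic the seeds in the RISC are, and gave each 6mer seed a viability, the mean survival of 3 mouse cell lines transfected with that seed in percent of control, where a lower value means a more toxic seed. Among the members AUAAAG of miR-142a-5p had 79.1% and GUAGUG of miR-142a-3p 75.8%, the highest of the main starts. The later start of miR-142a-3p, UAGUGU, had 57.6%, so the shift by 1 base stands beside a lower viability. CUCCCA of miR-150-5p had 69.3% and GAGAAC of the miR-146 pair 51.6%. The lowest values were those of UAAUGC of miR-155-5p, 42.9%, and GUCAGU of miR-223-3p, 31.3%. Weighted by CPM, the members' reads averaged 65.9% to 66.6% over the 4 libraries against 57.7% to 58.4% for all reads. Without miR-150-5p the members averaged 58.9% and 60.3% at 2 months and 57.5% and 59.0% at 18 months. All reads averaged 57.7% and 57.9%, then 58.1% and 58.4%, in the same order. Most of the difference from all reads thus came with that 1 miRNA. The other members remained slightly higher in each library but 18-month replicate 1, where they were lower.

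The 3′ ends of miR-142a-3p ranged more widely over the libraries than its 5′ starts. These ends were singled out after their values were seen. Reads of miR-142a-3p that ended at the reference 3′ end made up 61.9% (95% Wilson interval 60.1 to 63.7) in 2-month replicate 1 and 37.0% (35.7 to 38.4) in 2-month replicate 2. At 18 months they made up 34.7% (32.8 to 36.6) and 47.7% (45.8 to 49.6). Reads 1 base shorter made up 20.1%, 42.5%, 43.9% and 30.6% in the same order. The shorter ends thus were scarcest in 2-month replicate 1, and the ages overlapped.

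The difference between the 2-month libraries in miR-142a-3p was largely one of these shorter reads. At 2 months reads at the reference end were at 160 and 171 CPM, while reads 1 base shorter were at 52.1 and 196 CPM. The most abundant sequence, which starts 1 base late and ends at the reference end, was at 102.9 and 114.9 CPM at 2 months, against 55.1 and 89.6 CPM at 18 months. The next, which starts at the reference base and ends 1 base short, was at 34.1 and 129.5 CPM at 2 months, against 66.8 and 58.0 CPM at 18 months. Forms of 1 miRNA thus gave different orders of the libraries. For miR-142a-5p, reads 1 base longer than the reference made up 8.16% and 4.25% at 2 months and 5.43% and 20.3% at 18 months, with 18-month replicate 2 apart from the other libraries.

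Letters added after the hairpin's own sequence, known as tails, were counted only where they differed from the hairpin's next base. An added A could thus not be seen right after the reference end of miR-223-3p or miR-146a-5p, nor an added U after that of miR-142a-3p. The tail shares and first letters of different members are therefore not fully comparable. By this count tails were most common on miR-223-3p. Reads with 1 to 3 added letters made up 45.3% (95% Wilson interval 41.1 to 49.6) and 41.4% (37.8 to 45.0) of its reads at 2 months and 36.2% (32.4 to 40.2) and 35.9% (32.1 to 39.9) at 18 months. The first added letter was U in 36.0% of all its reads. The ages did not overlap, the difference of the means was -7.28 percentage points, and the exact permutation test gave p = 0.333, the smallest possible. The Wilson intervals of 2-month replicate 2 and 18-month replicate 1 did overlap. Untailed reads of miR-223-3p that ended 1 base past the reference end went the other way. They made up 20.2% and 19.4% at 2 months and 26.2% and 29.9% at 18 months. The hairpin has A at that base, so these reads cannot be told from reads with an added A. Whether all added letters became fewer with age is thus not shown. miR-146a-5p had tails on 24.4% to 27.3% of its reads, mostly U (21.2%), and the ages overlapped. miR-142a-3p had them on 10.3% to 12.8%, mostly A, and miR-146b-5p on 9.29% to 10.1%, also mostly A. The tails of miR-146b-5p (9.29% and 9.75% at 2 months, 10.1% and 9.97% at 18 months) also did not overlap between the ages. Those of miR-142a-5p (2.38% and 3.24%, then 3.52% and 3.37%) did not either. Both had higher shares at 18 months and an exact permutation p = 0.333 each. Tails of miRNAs outside the members were not counted, so no background share stands beside these separations.
The most abundant read and its U-tailed form are shown for the 2 members with the most tails by this count, again with T for U and the seed in capitals.
miR-223-3p: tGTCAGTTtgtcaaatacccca
miR-223-3p with U added: tGTCAGTTtgtcaaataccccat
miR-146a-5p: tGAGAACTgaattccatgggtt
miR-146a-5p with U added: tGAGAACTgaattccatgggttt
The untailed read of miR-223-3p was at 9.54 and 14.0 CPM at 2 months, against 12.9 and 14.4 CPM at 18 months, and the form with U added at 12.6 and 15.2 and at 9.27 and 13.1 CPM. The 2 forms were thus about equally abundant. For miR-146a-5p the untailed read was at 74.7 and 104.8 CPM at 2 months, against 122.1 and 91.7 CPM at 18 months, and the form with U added at 34.0 and 44.0 and at 58.0 and 43.3 CPM, so that both forms were lowest in 2-month replicate 1 and highest in 18-month replicate 1.

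**Figure D4:**
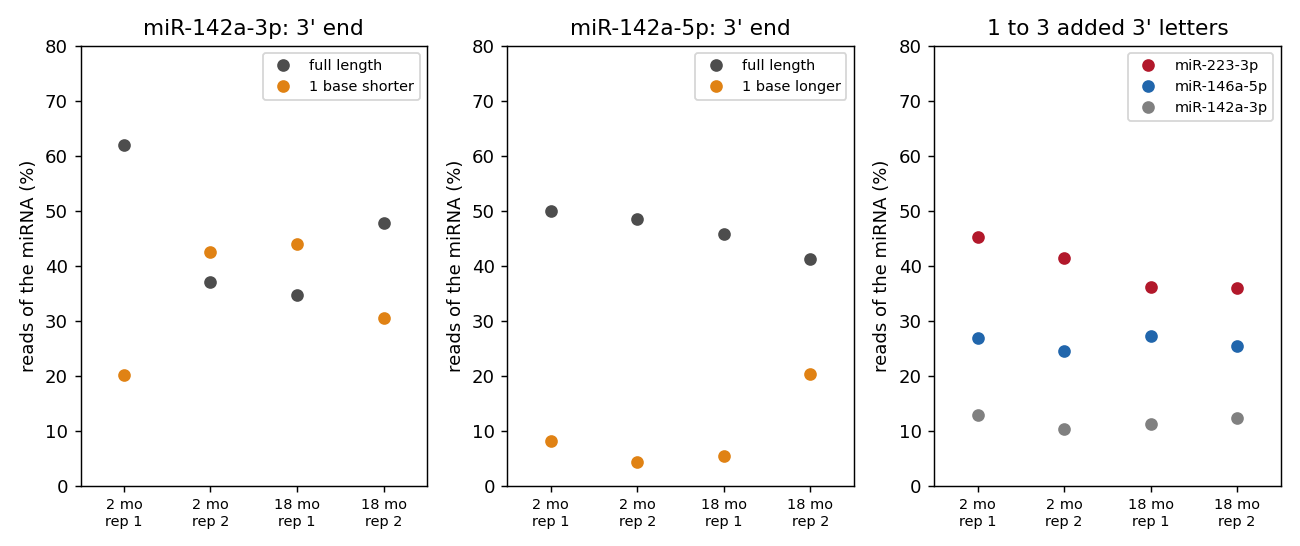
Share of a miRNA's reads in each library by 3′ end: at the reference end or 1 base off it for miR-142a-3p and miR-142a-5p, and with 1 to 3 added letters for miR-223-3p, miR-146a-5p and miR-142a-3p. For miR-142a-3p the reference end ranges from 34.7% to 61.9%, and tails on miR-223-3p are at 41.4% or more at 2 months and at 36.2% or less at 18 months. Added letters that match the hairpin's next base are not counted as tails.

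Of the members' 383 sequences, 99 had a mean of at least 1 CPM and were tested singly. An unadjusted p under 0.05 by limma was reached by 2 of them (2.02%), against 1443 of 14287 sequences of the whole table (10.1%), and 0 of the 99 passed the adjustment. Sequences of 1 miRNA share their source and are not replicates. One of the pair was a read of miR-142a-5p, ataaagtagaaagcactacta, which rose by 0.94 on the log2 scale (SE 0.39, limma adjusted p = 0.469). It was at 0.57 and 0.18 CPM at 2 months, against 1.04 and 2.32 CPM at 18 months. The other was an 18-nucleotide read of miR-150-5p that fell by 1.04 (SE 0.41, limma adjusted p = 0.449), from 2.19 and 2.28 CPM to 1.23 and 0.11 CPM. Both are rare forms, named here after their values were seen.

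The tested forms of 1 miRNA did not all have 1 direction. Of these sequences 16 of 20 of miR-142a-3p, 8 of 11 of miR-142a-5p and 21 of 30 of miR-150-5p had a lower mean log2 value at 18 months, while 12 of 15 of miR-146a-5p had a higher one. For miR-146b-5p 7 of 12 and for miR-223-3p 5 of 10 were higher. The 1 tested sequence of miR-155-5p was lower. These counts have no share over all tested sequences beside them, and forms of 1 miRNA are not independent. On the CPM scale the median change of all tested miRNAs was itself -0.22. Forms that went the other way included a 20-nucleotide read of miR-150-5p, at 53.2 and 64.6 CPM at 2 months, against 70.1 and 68.7 CPM at 18 months, named here after its values were seen. The most abundant sequence of miR-150-5p, 60.2% of its reads, was at 1560 and 1715 CPM at 2 months, against 1376 and 1491 CPM at 18 months. The next 2 sequences of miR-150-5p were at 438 and 450 CPM, then 402 and 398 CPM, and at 205 and 203 CPM, then 160 and 154 CPM, for the 2 ages. All 3 were lower in both older libraries, as were 41.4% of all tested miRNAs. The 3 forms share 1 source, and the share over all tested sequences was not computed.

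Profiles like that of miR-150-5p were looked for among the 450 tested miRNAs outside the members, by the root mean square difference of log2(CPM + 1) after centring over the 4 libraries. The closest were miR-326-3p (0.031), miR-376c-3p (0.032) and miR-29b-1-5p (0.033). miR-326-3p was at 789.5 and 869.3 CPM at 2 months, against 691.9 and 684.1 CPM at 18 months. For the sum of the members the closest were miR-1843b-5p (0.033), miR-326-3p (0.038) and miR-188-5p (0.040). These names describe a likeness of values over 4 libraries.

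Other miRNAs known from immune cells gave values in both directions. Of the 6 listed, 3 reached the level for testing and 1 of the 3 passed an unadjusted p under 0.05. miR-342-5p fell by 0.66 on the log2 scale (SE 0.23, limma adjusted p = 0.266), from 73.5 and 81.0 CPM to 53.7 and 44.0 CPM. After rescaling by the median of ratios its change was -0.45 (limma adjusted p = 0.461), and it did not reach an unadjusted 0.05 there, with edgeR (adjusted p = 0.509) or with DESeq2 (adjusted p = 0.559). Its partner arm miR-342-3p was at 3328 and 3192 CPM at 2 months, against 2648 and 2021 CPM at 18 months (limma adjusted p = 0.335). miR-21a-5p, known from activated myeloid cells and glia, was at 4266 and 3966 CPM at 2 months, against 5386 and 5565 CPM at 18 months (log2 change 0.41, limma adjusted p = 0.360). By the median of ratios its change was 0.62 (past an unadjusted 0.05 by limma, adjusted p = 0.231). It also passed an unadjusted 0.05 with edgeR (log2 change 0.64, adjusted p = 0.247) and DESeq2 (0.62, adjusted p = 0.117), so the 1 call of this list was miR-342-5p, lower, on the CPM scale and miR-21a-5p, higher, on these 3 rescaled fits. miR-147-3p and miR-511-3p were at 2.63 CPM or less, and miR-511-5p was not listed.

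The lists for other cell types moved as follows. Of the red blood cell list 0 of 3 tested names passed limma's test at an unadjusted p under 0.05, and 0 of 3 with edgeR or DESeq2. Their summed levels overlapped between the ages, as did those of the 4 neuronal names and of the oligodendrocyte miRNAs miR-219a-2-3p and miR-338-3p. Of the neuronal names 0 of 4 and of the oligodendrocyte names 0 of 2 passed with any of the 3 tools. The endothelial miR-126a-3p passed, at 9242 and 8854 CPM at 2 months, against 2557 and 6489 CPM at 18 months (log2 change -1.15, limma adjusted p = 0.266), and its partner arm miR-126a-5p overlapped. Neither arm passed with edgeR or DESeq2. The muscle miRNAs miR-1a-3p and miR-133a-3p together were at 150.3 to 229.8 CPM. Of them miR-133a-3p alone passed (log2 change 0.86, limma adjusted p = 0.269). It also passed an unadjusted 0.05 with edgeR (log2 change 1.03, adjusted p = 0.213) and DESeq2 (1.01, adjusted p = 0.090). With the replicate block it did not pass (limma adjusted p = 0.298), and without 2-month replicate 2 its log2 change was 0.40.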

How the data were processed

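Small RNAs bound to Ago1-4 were pulled down from combined cortex and hippocampus of BL6 mice aged 2 or 18 months (2 libraries per age; 250 mg of tissue per the labels), size-selected at 19-35 nt and sequenced. The authors trimmed the reads (Trim Galore; version not given in the sources used here), dropped rare reads, ran BLAST against small RNA lists and deposited CPM values per sequence. The genome build of that matching is not given in the sources used here. They also deposited a sum of the 4 columns, not used here, and a viability score for each 6mer seed.

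Sequences were summed by miRNA name. Every nonzero value was a whole number of reads within 0.05 of a read (100%), and these recovered reads were used for edgeR 4.0.16 and DESeq2 1.42.0 as alternatives. The main test was limma 3.58.1 in R 4.3.3, with an intensity trend, on log2(CPM + 1), with age as the only covariate, for miRNAs of at least 10 CPM and sequences of at least 1 CPM on average. A fold on this scale understates changes of low miRNAs. Ratios and shares were compared by exact two-sided permutation tests. Intervals of shares are 95% Wilson intervals, which cover counting error only. The fits were tested on simulated data with known changes larger than those of the members. Changes as small as the members' were not simulated, so the power to see them is not known. Alternatives tried were a replicate block, pseudocounts of 0.1 and 5, other filters, scaling by the median of ratios, limma without trend, other choices of sequences and leaving out each library.

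Text names follow a rule: all members, both arms of their hairpins, the 3 closest profiles to the most abundant member and to the sum, each member's leading sequences and the marker lists. The members and lists were chosen with earlier results of these data known. Mature sequences came from RefSeq (6 of 7 members matched), and gene context from the GENCODE M21 annotation of the same assembly. Libraries of other experiments were not analysed here. Library pairs correlated at r = 0.979 to 0.988 and none agreed within sampling noise.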

Additional observations from a re-analysis of the deposited data

Results flagged for a closer look

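Reads were found in sequences that carry no miRNA name in the table and so enter none of the member values, but that match the hairpin of a member exactly or were assigned to it by the authors' annotation of the table. From the Mir142 hairpin 18 such sequences, 3 of them exact matches, summed to a mean of 4.86 CPM, with 4.86 and 6.94 CPM at 2 months, against 3.22 and 4.41 CPM at 18 months. The leading one, cccataaagtagaaagcac, is a shortened form of the miR-142a-5p reads that start 2 bases early, and it was at 2.19 and 2.20 CPM at 2 months, against 1.61 and 1.88 CPM at 18 months. From the Mir146 hairpin 14 sequences, 3 of them exact matches, summed to a mean of 1.97 CPM, with 1.91 and 2.46 CPM at 2 months, against 2.08 and 1.43 CPM at 18 months. The 0.263 to 0.331 CPM that a count of 0 allows holds for 1 sequence, so sums over many sequences cannot be judged by it. The leading Mir142 sequence was above it in each library. The leading Mir146 sequence, at a mean of 0.217 CPM, was below it on average. Both sums are small beside the named reads of the same hairpins.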

How the results depend on the processing

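With 2 libraries per age, 1 library can decide a value. Leaving out each library in turn gave 0 to 1 of the 6 members with an unadjusted p under 0.05 by limma, 55 to 74 of all tested miRNAs and 2 to 6 of the members' sequences. The 1 member was miR-142a-3p without 2-month replicate 1, as given above. Without 2-month replicate 2 its log2 change turned to 0.026. It ranged from -0.81 to 0.026, that of miR-146b-5p from -0.32 to 0.23, and that of miR-223-3p from -0.10 to 0.24. The lone library of an age was assumed to vary like the others. The 6 sequences came without 18-month replicate 1 and 4 came without 2-month replicate 1.

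Over the alternatives that kept all libraries, 0 members passed, and 61 of 65 member values kept their direction. The replicate block, limma without trend and the filters on miRNA level leave the log2 change itself unchanged. In those settings the direction could not turn, so the 61 overstate how firm it is. All 4 turns came with the scalings given next. The log2 change of miR-146b-5p turned to 0.16 by the median of ratios, 0.20 by edgeR and 0.19 by DESeq2, and that of miR-150-5p to 0.0034 by edgeR. These scalings move the median of all miRNAs from -0.22 to between -0.01 and 0.01, a shift as large as these turns. The summed level of the members differed by -478 CPM between the ages, and by 29.2 CPM by the median of ratios. All tested miRNAs with p under 0.05 numbered 125 of 1029 without a filter and 43 of 273 at 100 CPM or more, where other numbers of miRNAs were tested. Of the members' sequences 5 passed without a filter, 0 of 32 at 10 CPM or more and 1 with a pseudocount of 0.1. With edgeR 62 and with DESeq2 69 miRNAs passed.

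Same-numbered libraries came from mice of different age, and the labels do not say whether they share more than a number. Their deviations from the age means correlated at 0.18 over miRNAs. With 2 libraries per age this value is the same for both numbers. With the replicate block 0 of 6 members, 79 of 456 miRNAs and 2 of 99 member sequences passed. For miR-155-5p, with 35 to 45 reads per library, only large changes could have been seen.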
